A study of Mus musculus with 31 samples.

Results

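The genes described here build and run the transport system of the primary cilium and the gate at its base. They are 43 genes chosen by name for their known role: 11 of intraflagellar transport complex B (IFT-B), 5 of complex A (IFT-A), 7 subunits of the BBSome, 3 genes that assemble the BBSome or bring it to the membrane, 4 motor subunits, 11 transition zone genes and 2 genes of the basal body and ciliary membrane. A gene also had to reach 10 counts in at least 5 mice. All 43 did, 1 of them found under an older symbol (Ift22, listed as Rabl5), out of 15285 genes that pass this count rule and 23509 genes in the files.

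The primary cilium is a single antenna on the apical face of most kidney tubule cells, and it has no protein synthesis of its own. IFT-B trains carried by kinesin-2 move cargo to the tip, IFT-A and the cytoplasmic dynein-2 motor bring trains back, the BBSome takes membrane proteins out, and the transition zone controls what enters. Mutations in these genes cause ciliopathies such as Bardet-Biedl syndrome, Joubert syndrome and nephronophthisis, many of them with cystic kidneys.

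The study asked how RGLS4326, an oligonucleotide that inhibits miR-17, changes gene expression in a mouse model of polycystic kidney disease. Whole kidneys of 31 male mice were measured by RNA-seq of poly(A) RNA, with 1 library a mouse. The Pcy PBS group (n = 12) came from Pcy/CD1 mice given PBS under the skin from 5 to 30 weeks of age, and the RGLS4326 group (n = 14) from Pcy/CD1 mice given that compound at 25 mg per kg monthly over the same weeks. The wild-type group was 5 untreated CD1 mice of the same age (n = 5), so it differs from both other groups in the Pcy allele and in having had no injections. Pcy is a recessive allele that causes cystic kidneys, and both cystic groups carry it in every cell. The sample labels and the study's description of the dosing give PBS as weekly, while the protocol text in the labels names only monthly dosing. The cystic groups may thus differ in how often they were injected, which cannot be told apart from the compound.

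Each mouse had between 14892524 and 27459962 counts in genes, and the lowest count of a member in any mouse was 43 (Nphp4). RGLS4326 mouse 9 stood apart from its group. Its root mean square difference from the wild-type mean over the genes tested was 0.33 on the log2 scale, against 0.51 to 0.89 in the other 13 mice given RGLS4326 and 0.25 to 0.32 among wild-type mice. Its summed injured tubule markers (10 genes) were 1152 CPM, within the 703 to 1267 CPM of wild type and below the 3501 to 8535 CPM of Pcy PBS. Wild-type mice 3 and 4 were more alike than any other pair of their group, but differed by more than counting noise (a chi-square of 2.69 per gene, next pair 16.1) and were counted as 2 mice. Nothing in the labels names a shared litter or cage, and the libraries fall into 3 index series, read from where the library numbers in the deposited names start again.

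Many ciliary genes carry an X-box, the DNA site of RFX transcription factors, in their promoters, so the promoters of the members were read for it. The windows run from 250 bases before to 50 bases after each gene start (RefSeq, GRCm38.p6), and 38 of the 43 members had one or more. The X-box of RFX factors was searched by name on both strands with a spacer of up to 3 bases between the parts it joins, and 6 of these 38 members (15.8%) held it without mismatch, against 10% of 60 other cilium genes, 1.85% of 11755 genes tested and 1.75% of all 27025 genes with a promoter. The capitals mark the matched X-box in each line, written 5′ to 3′ on the strand of the gene. Ift57 has a pair of them, and the window ends at the Tctn1 site.
Tctn1 (chr5:122264411-122264432, - strand): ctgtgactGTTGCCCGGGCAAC
Tctn2 (chr5:124598679-124598708, + strand): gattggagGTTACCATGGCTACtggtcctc
Tctn3 (chr19:40612351-40612379, - strand): tcccagcgGTTGCCAGGTAACgggaacca
Ahi1 (chr10:20952560-20952589, + strand): tagtctgaGTTACCTAGGCAACagcggcag
Ift57, first (chr16:49699199-49699228, + strand): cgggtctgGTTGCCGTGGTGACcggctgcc
Ift57, second (chr16:49699226-49699254, + strand): gccctgcgGTTGCCTGGTAACggtgggga
Bbs1 (chr19:4906605-4906634, - strand): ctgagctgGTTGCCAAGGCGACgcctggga

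All 3 tectonic genes are in this set. With 1 mismatch allowed, 18 of 38 members (47.4%) held a match, against 36.7% of the other cilium genes and 13.8% of genes tested, among them the member that fell most clearly in the cystic kidney (Ift88) and a member that rose by a similar size (Nphp4). Their sites are shown next, with the capitals again marking the match.
Ift88 (chr14:57424075-57424105, + strand): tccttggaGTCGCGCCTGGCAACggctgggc
Nphp4 (chr4:152477903-152477932, + strand): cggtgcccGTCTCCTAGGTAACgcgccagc
The half-site GTTGCC, which lies inside many X-boxes, was present on either strand in 18 members (47.4%), in 30% of the other cilium genes and in 14.8% of genes tested. A match is a description of the letters, not a site shown to be bound.

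**Figure D1:**
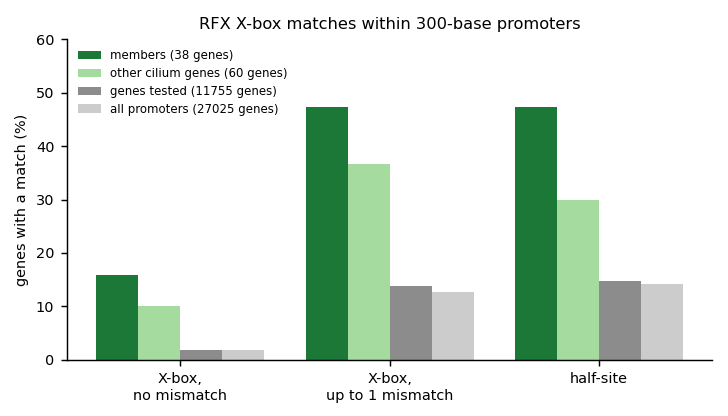
Share of genes (%, linear axis from 0) whose promoter window holds an X-box without mismatch, an X-box with up to 1 mismatch, or the half-site, for 38 members, 60 other cilium genes, 11755 genes tested and all 27025 genes with a promoter. The member bars, at 15.8%, 47.4% and 47.4%, stand above those of the other 3 sets for each motif.

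The compared drug acts on miR-17, so the annotated 3′ UTRs of the members were also read for its seed. The mature sequence (RefSeq, GRCm38.p6) is shown with the seed, bases 2 to 8, in capitals, followed by the 4 member sites (GENCODE vM21, GRCm38) that pair with it, each in the last exon of its gene.
mmu-miR-17-5p (chr14:115043684-115043706, + strand): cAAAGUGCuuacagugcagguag
Ift88 (chr14:57517728-57517734, + strand): ttgcaaggcaaGCACTTTtccaattgtgct
Bbs12 (chr3:37321348-37321354, + strand): aagaacagcaaGCACTTTtgagtcatttct
Kif3b (chr2:153332738-153332744, + strand): ataggcatgaaGCACTTTgtaagactgacc
Ofd1 (chrX:166390265-166390271, - strand): tgaacttgccaGCACTTTgttactgagatt
The coordinates of these 4 are those of the capitals. Of the 42 members with an annotated 3′ UTR, these 4 (9.52%) had a site, against 13.9% of 14431 genes tested, and the median 3′ UTR was 780 bases for members and 1145 for genes tested.

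In wild-type kidney all members were detected, and their spread between mice was near that of all genes tested. The unit is CPM, the share of a library's counts that a gene takes after edgeR's TMM scaling, and levels of different genes are compared as mean CPM per kilobase of the longest coding transcript. Ift20, an IFT-B subunit also found at the Golgi, was the highest at 30.1 CPM per kilobase ± 0.54 (SD, n = 5). Dync2li1, a light intermediate chain of dynein-2, followed at 26.0 ± 1.45 and Ift52, of the IFT-B core, at 24.2 ± 0.55, and the mice of these last genes overlapped. Transition zone genes were lower, with a median of 2.63 CPM per kilobase over 11 genes against 9.62 over the 11 IFT-B genes, and Nphp4 was the lowest member at 0.57 ± 0.06. The median SD between mice on the log2 scale was 0.12 for members in wild type, 0.13 in Pcy PBS and 0.13 in RGLS4326, against 0.13, 0.19 and 0.19 for all genes tested.

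The first comparison asks how these genes differ between the cystic and the healthy kidney. In Pcy PBS 14 of 43 members were higher than in wild type and 12 were lower at an adjusted p under 0.05, and 17 were not called. Over all 15185 genes tested 37.7% were called higher and 36.6% lower, 74.3% in all, against 60.5% of the members. The median log2 fold change of the members was 0.04, beside 0.01 over all genes, and the median of its absolute size was 0.19, beside 0.42. Changes past 0.5 on the log2 scale, the size the study used, were found in 3 members that rose (Ift27, Bbs2, Nphp4) and 2 that fell (Ift88, Cep290), while 24.6% and 17.8% of all genes rose or fell by that much.

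Directions depended on scaling. With libraries scaled to total counts alone, the median of all genes moved by 0.37 log2 units and the members were called 34 higher and 1 lower. Over all 15185 genes tested, that scaling called 9513 higher and 2373 lower. All 14 members called higher were still called, and of the 12 called lower 7 turned positive (Ift52, Ift122, Bbs5, Ttc8, Dync2h1, Rpgrip1l, Ahi1) and only Ift88 was still called lower. A lower value below therefore means lower than the typical gene of the same library.

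**Figure D2:**
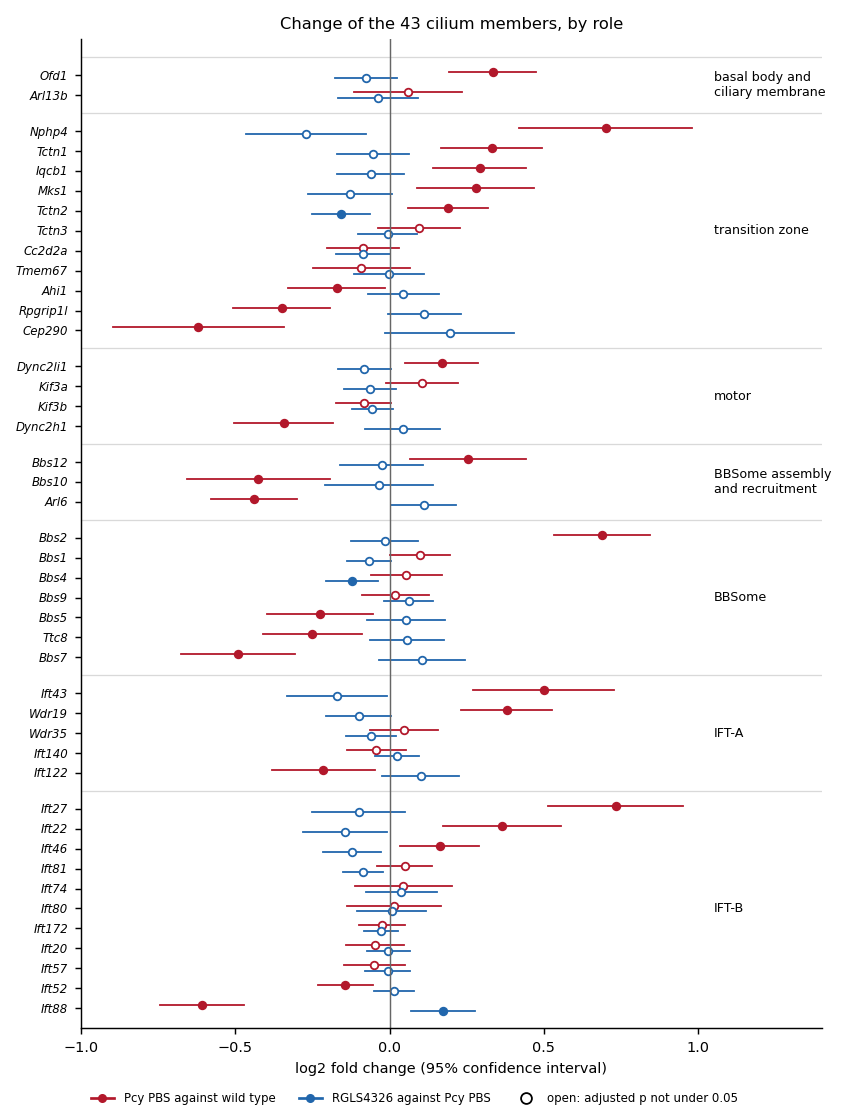
Log2 fold change (horizontal axis) of each of the 43 members, grouped by role, for Pcy PBS against wild type (red) and RGLS4326 against Pcy PBS (blue). Lines are 95% confidence intervals and filled points have an adjusted p under 0.05. Red points run from -0.62 (Cep290) to 0.73 (Ift27) in both directions within most roles, and the blue points lie between -0.27 and 0.19. With scaling to total counts alone, 7 of the 12 filled red points left of 0 move to its right.

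Among the IFT-B genes Ift88 was lower and Ift27 higher in the cystic kidney, and 6 of 11 were not called. Ift88 (chr14:57424062-57517936 on GRCm38) encodes a core subunit whose loss in the mouse is a classic cause of polycystic kidneys. Its level in the wild-type mice was 33.9, 34.6, 34.5, 34.3 and 36.8 CPM, and in Pcy PBS it ran from 19.7 over a median of 22.5 to 26.6 CPM. The groups did not overlap, and the log2 fold change was -0.61 ± 0.07 (SE, adjusted p = 1.12e-08), a level 34.4% lower, and -0.25 (adjusted p = 4.1e-05) under total-count scaling, with -0.56 in index series 1 alone and -0.58 in index series 2 alone. Exons of 9 members overlap a gene on the other strand, and the strand setting of the counting is not given in the sources used here. The shared length was 67 bases for Ift88 (with Ift88os), 881 for Cep290 (with 4930430F08Rik) and 1574 for Tctn1 (with Hvcn1), and Arl6, Bbs12, Bbs4, Ift57, Ofd1 and Tmem67 are the others.

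Ift27 (chr15:78159463-78174107), a small GTPase of the IFT-B train that links it to the BBSome, went the other way. The wild-type mice had 8.08, 11.2, 7.28, 7.08 and 11.1 CPM and Pcy PBS 12.8, 14.4 and 18.2 CPM as lowest, median and highest. Every Pcy PBS mouse was above every wild-type mouse, at a log2 fold change of 0.73 ± 0.11 (SE, adjusted p = 5.71e-07). Ift22, another small GTPase of the complex, rose by 0.36 and Ift46 by 0.16, and Ift52 was lower by a log2 fold change of -0.14 (0.22, above wild type, with total-count scaling).

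The other 6 IFT-B genes (Ift20, Ift57, Ift74, Ift80, Ift81, Ift172) had log2 fold changes between -0.05 and 0.05. Ift80, with the largest p of the group, had 16.6, 19.1, 20.2, 20.5 and 20.4 CPM in wild type and 14.8, 19.7 and 21.9 CPM in Pcy PBS. Its groups overlapped, and the 95% interval of its log2 fold change was -0.14 to 0.17 (adjusted p = 0.863). For Ift172, the large subunit that turns trains around at the tip, the interval was -0.10 to 0.05. On the TMM scale the 95% intervals of the 6 ran from -0.15 to 0.20 at the widest. Under total-count scaling all 6 were called higher, by 0.32 to 0.42, as were 9513 of all 15185 genes tested.

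Of the IFT-A genes 2 of 5 rose and 1 fell. Wdr19, also known as Ift144, had 15.8, 14.7, 15.4, 13.4 and 16.9 CPM in wild type and 17.9, 19.7 and 22.1 CPM in Pcy PBS, without overlap. Its log2 fold change was 0.38 ± 0.07 (SE, adjusted p = 2.74e-05). Ift43, the smallest subunit of the complex, had 11.3, 9.27, 9.64, 9.51 and 10.2 CPM in wild type and 11.5, 13.2 and 17.5 CPM in Pcy PBS, again without overlap (log2 fold change 0.50 ± 0.11, SE, adjusted p = 0.000209). Ift122, a core subunit, was lower by -0.21 (adjusted p = 0.0197), with the sign turned by total-count scaling. Ift140, a core subunit, and Wdr35, a peripheral one, were not called, with values of -0.04 and 0.05. Wdr35 had 34.2, 36.6, 33.5, 33.9 and 32.3 CPM in wild type and 33.8, 34.6 and 38.5 CPM in Pcy PBS.

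In the BBSome 1 subunit rose, 3 fell and 3 were not called. Bbs2 (chr8:94067954-94098928), a subunit of its head, had 21.1, 20.6, 19.1, 18.4 and 17.3 CPM in wild type and 27.4, 31.5 and 34.6 CPM in Pcy PBS. The groups did not overlap, and its log2 fold change of 0.69 ± 0.08 (SE, adjusted p = 1.27e-08) was the largest of the complex. Bbs7 (chr3:36573142-36613477), which pairs with Bbs2 in that head, had 18.8, 23.6, 20.6, 19.98 and 19.0 CPM in wild type and 11.6, 14.6 and 17.4 CPM in Pcy PBS. It was lower without overlap, by -0.49 ± 0.09 (SE, adjusted p = 1.62e-05, and -0.13 without a call under total-count scaling). Ttc8 and Bbs5 were lower by -0.25 and -0.23, and both turned positive under that scaling. Bbs9 had 20.5, 21.1, 19.1, 20.3 and 19.1 CPM in wild type and 18.8, 19.99 and 23.2 CPM in Pcy PBS, with a log2 fold change of 0.02 (95% interval -0.09 to 0.13). Bbs1, which binds the membrane GTPase Arl6 and carries an X-box, was at 0.10 with an adjusted p of 0.0585, and was called in 6 of the 31 models that left out 1 mouse each.

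All 3 genes that assemble or recruit the BBSome were called, 1 higher and 2 lower, in a comparison that called 74.3% of all genes. Arl6, the GTPase that brings it to membranes, had 26.5, 27.4, 26.3, 27.2 and 27.1 CPM in wild type and 17.3, 19.6 and 22.8 CPM in Pcy PBS. The wild-type values were tight and the groups did not overlap (log2 fold change -0.44 ± 0.07, SE, adjusted p = 1.48e-06, and -0.08 without a call under total-count scaling). Bbs10, a chaperonin-like assembly factor, had 6.55, 4.99, 7.87, 7.45 and 6.68 CPM against 3.67, 5.03 and 5.91 CPM, and its groups overlapped through wild-type mouse 2 (-0.43 ± 0.11, SE, adjusted p = 0.00133, and -0.06 without a call under that scaling). Bbs12, its partner in assembly, had 5.78, 4.57, 5.92, 6.66 and 5.06 CPM against 5.21, 6.69 and 7.71 CPM. It rose by 0.25 ± 0.09 (SE, adjusted p = 0.0146), and the adjusted p was 0.0729 without wild-type mouse 2.

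Of the 4 motor genes the dynein-2 heavy chain was lower, the dynein-2 chain Dync2li1 was higher and both kinesin-2 genes were not called. Under total-count scaling Dync2li1, Kif3a and Kif3b were above wild type in every Pcy PBS mouse and Dync2h1 overlapped it. Dync2h1 (chr9:6928503-7184446), which pulls trains back to the base, had 35.3, 36.6, 33.8, 35.5 and 33.3 CPM in wild type and 21.98, 28.1 and 31.3 CPM in Pcy PBS, without overlap. Its log2 fold change was -0.34 ± 0.08 (SE, adjusted p = 0.000282) and turned to 0.02 under total-count scaling. Dync2li1, of the same motor, had 34.8, 35.4, 38.3, 34.6 and 32.9 CPM against 33.3, 39.6 and 45.4 CPM, and rose by 0.17 ± 0.06 (SE, adjusted p = 0.01001) with overlapping groups. The kinesin-2 genes Kif3a and Kif3b were not called, at 0.11 (95% interval -0.01 to 0.22) and -0.08 (-0.17 to 0.01). Kif3a had 23.0, 23.4, 26.4, 28.6 and 21.6 CPM against 24.3, 26.7 and 29.3 CPM, and it passed the test at an adjusted p of 0.0106 when wild-type mouse 4 was left out and at 0.0477 without wild-type mouse 3.

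Of the transition zone genes 5 of 11 were higher, 3 were lower and 3 were not called. Nphp4 (chr4:152476706-152563183), of the nephronophthisis module, had 2.95, 3.33, 2.60, 2.60 and 2.89 CPM in wild type and 3.49, 4.75 and 6.32 CPM in Pcy PBS. No mouse overlapped, and the log2 fold change was 0.70 ± 0.14 (SE, adjusted p = 4.25e-05). Cep290 (chr10:100487558-100574840), which bridges microtubules and membrane in the zone, had 11.2, 12.8, 14.1, 14.5 and 11.7 CPM against 4.41, 8.65 and 11.4 CPM. It had the lowest log2 fold change of all members (-0.62 ± 0.14, SE, adjusted p = 0.00016), the groups overlapping only between wild-type mouse 1 and Pcy PBS mouse 4, and it was at -0.26 without a call under total-count scaling. Cep290 was also the member that varied most among Pcy PBS mice, with an SD of 0.33 on the log2 scale.

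Tctn1, Iqcb1, Mks1 and Tctn2, of the tectonic, nephronophthisis and Meckel syndrome modules, rose by 0.33, 0.29, 0.28 and 0.19. Rpgrip1l, a scaffold of the zone, and Ahi1 were lower by -0.35 and -0.17, both positive under total-count scaling. Tmem67, the membrane receptor of the Meckel module, had 9.02, 8.97, 8.76, 10.1 and 8.85 CPM in wild type and 7.70, 8.503 and 9.69 CPM in Pcy PBS. It was not called at -0.09 (95% interval -0.25 to 0.06) and was called higher, at 0.28, under total-count scaling. Tctn3 and Cc2d2a were not called either, at 0.09 and -0.09.

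At the basal body Ofd1, a centriolar satellite and distal centriole protein, had 13.4, 12.1, 11.3, 13.7 and 13.97 CPM in wild type and 13.8, 16.1 and 18.6 CPM in Pcy PBS. It rose by 0.33 ± 0.07 (SE, adjusted p = 7.82e-05), with the wild-type mouse at 13.97 CPM just inside the Pcy PBS range. Arl13b, a GTPase of the ciliary membrane widely used to stain cilia, had 9.02, 9.56, 9.11, 9.02 and 10.2 CPM against 8.39, 9.66 and 12.3 CPM. It was not called at 0.06 (95% interval -0.12 to 0.24). Over all roles the mice of the groups did not overlap in 10 of 43 members (23.3%), 5 higher and 5 lower, against 42.2% of all genes tested. Under total-count scaling it was 27 members higher and 1 lower (Ift88). The share of all genes without overlap was not counted under that scaling, where 75.3% of all genes had a positive log2 fold change.

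**Figure D3:**
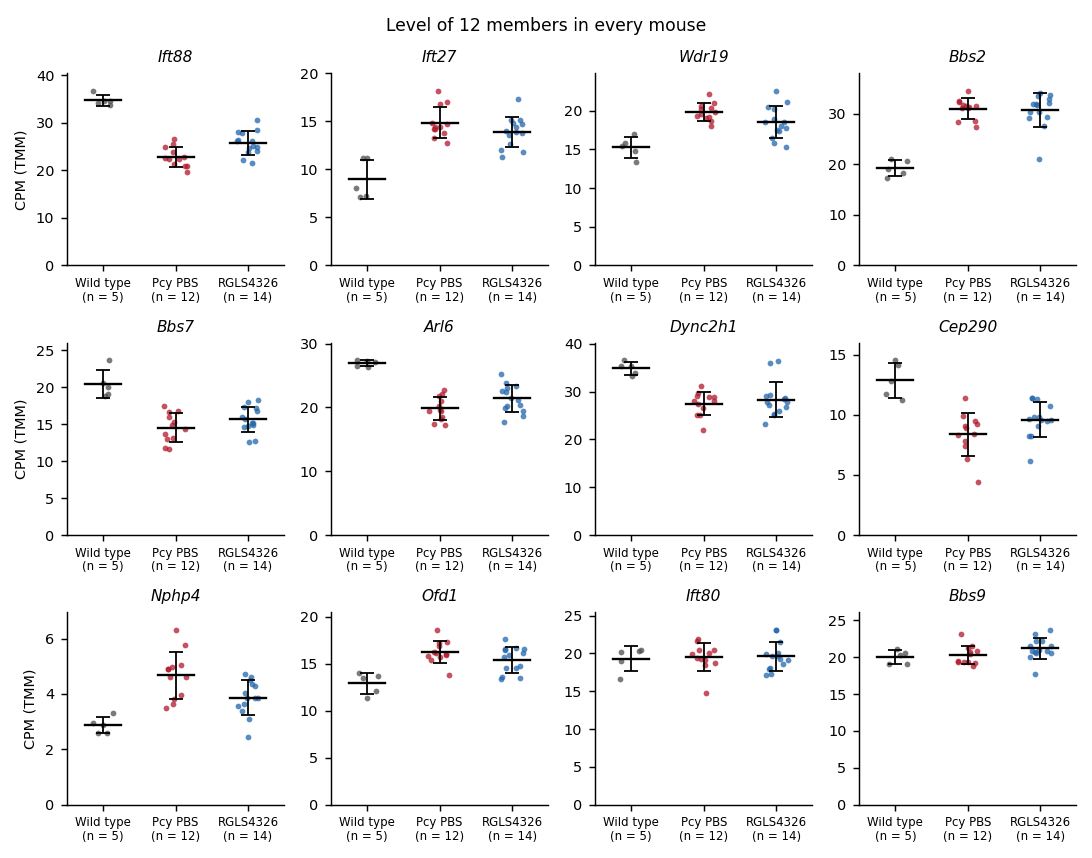
Level in CPM (vertical axis from 0) of 12 members in every mouse of the 3 groups, with the mean as a bar and the SD as whiskers. Ift27, Wdr19, Bbs2 and Nphp4 are above wild type in all 12 Pcy PBS mice, Ift88, Bbs7, Arl6 and Dync2h1 are below it, and Ift80 and Bbs9 overlap. These are on the TMM scale, and under total-count scaling Bbs7, Arl6 and Dync2h1 overlap wild type while Ift88 stays below it.

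Of the 6 members with an X-box, Tctn1 and Tctn2 rose, Ahi1 was lower, and Tctn3, Ift57 and Bbs1 were not called, with log2 fold changes from -0.17 to 0.33 on the TMM scale. With TMM 37.7% of all genes were higher and 36.6% lower. Under total-count scaling all 6 were called higher, by 0.19 to 0.70. That scaling called 9513 of 15185 genes higher, with an all-gene median of 0.38. Of the 4 members with a miR-17 seed site, Bbs12 and Ofd1 rose, Ift88 fell and Kif3b was not called.

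Whole kidney holds many cell types, and in bulk tissue fewer cells of a type and less RNA per cell cannot be told apart. Beside the member changes, all 12 proximal tubule markers were lower in Pcy PBS, and their summed level was 21000 to 42540 CPM against 56140 to 70610 CPM in wild type. All 7 principal cell markers were higher, summing to 1587 to 3241 CPM against 551 to 915 CPM. All 10 injured tubule, 8 macrophage, 9 lymphocyte and 10 proliferation markers were called higher as well, as were 8 of 10 fibroblast markers, while 3 of 6 endothelial markers were lower. The part of these shifts in the member changes was not tested.

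The regulators of ciliary genes moved apart from each other. Of 6 tested RFX and FOXJ1 genes 4 were higher and 2 lower. Foxj1, the master regulator of motile cilia, was at 0.57 CPM ± 0.25 (SD, n = 5) in wild type and 18.6 ± 9.79 (SD, n = 12) in Pcy PBS (log2 fold change 5.01 ± 0.66, SE, adjusted p = 1.37e-07). Rfx3, an X-box factor, fell from 9.72 ± 1.35 to 6.37 ± 0.80 CPM (-0.61 ± 0.11, SE, adjusted p = 2.2e-05). Of 17 tested motile cilia markers 12 were higher, Ccdc39 by 2.12, and 1 was lower, Dnah9 by a log2 fold change of -2.19.

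Among 67 other cilium genes tested, 27 were higher and 24 lower in Pcy PBS, near the 37.7% and 36.6% of all genes tested. Transition zone genes outside the member list rose in 8 of 12 cases, Tmem138 by 0.67, while Tmem237 was lower at -1.65 and 3 were not called. Of 8 other IFT genes 2 were higher, with Rabl2 at 0.67, and 3 lower, with Ttc21b at -0.27. Of 8 other motor genes 4 were higher, with the kinesin Kif7 at 1.24, and 1 lower, Dynlt1b at -2.42. Of 9 membrane and cargo genes 5 were higher and 4 lower, with Unc119b at -0.59 and the lipid phosphatase Inpp5e at -0.25. Of 16 centriole and basal body genes 4 were higher, with Sdccag8 at 0.69, and 9 lower, with the kinase Ttbk2 at -0.66. The BBSome-related genes fell in 4 of 6, led by Lztfl1 (-0.69), which restrains BBSome entry, and Mkks (-0.39), an assembly chaperonin. Of 5 inversin compartment genes 1 was higher and 2 were lower, with Invs falling by 1.02 on the log2 scale. Of the polycystin list Pkd1 rose by 0.30 and Pkhd1 by 0.17, and Pkd2 was at -0.20 with an adjusted p of 0.0595. In the Hedgehog pathway, which signals through the cilium, Gli1 rose by 2.20 and Ptch1 was lower by -0.61, 5 of 11 genes higher and 3 lower. Of 10 cilium disassembly genes 6 rose, led by the kinase Aurka (1.33) and by Plk1 (1.26), and 1 fell.

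The second comparison asks what RGLS4326 changed in cystic kidneys. Among the members 1 was higher (Ift88) and 2 were lower (Tctn2, Bbs4) than in Pcy PBS, and 40 were not called. Over all 15185 genes tested 9.15% were called higher and 6.66% lower (1390 and 1012 genes), 15.8% in all, against 6.98% of the members. These all-gene counts depended on single mice, with 368 higher and 250 lower without Pcy PBS mouse 10. Without RGLS4326 mouse 9 they were 706 and 528, and without RGLS4326 mouse 2 they were 2197 and 1802. None of the 3 member calls passed 0.5 on the log2 scale, where 2.15% of all genes were called (0.935% higher and 1.22% lower). At an unadjusted p under 0.05 there were 9 members, against 36.8% of all genes. With total-count scaling, which moved the median of all genes by -0.11, there were 0 members higher and 20 lower (Tctn2 and Bbs4 among them). Over all 15185 genes tested, that scaling called 551 higher and 4132 lower. With TMM the median log2 fold change of the members was -0.03, beside -0.004 over all genes. In none of the 43 members, and in none of the genes tested (0% of them), did the mice of the groups stay apart.

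Ift88 had 21.7 CPM as the lowest, 25.7 as the median and 30.7 as the highest value with RGLS4326, against 19.7, 22.5 and 26.6 with PBS. The highest was mouse 9, and even it stayed below the lowest wild-type mouse at 33.9 CPM. The log2 fold change was 0.17 ± 0.05 (SE, adjusted p = 0.0277), and 0.15 with an adjusted p of 0.0464 without mouse 9. Without both mouse 9 and wild-type mouse 4, a choice made after seeing the data, the call was lost (0.15, adjusted p = 0.0561). Leaving out Pcy PBS mouse 5, 9 or 10 ended the call, with adjusted p of 0.0570, 0.0555 and 0.0604. Within index series 1, 2 and 3 alone the value was 0.06, 0.25 and 0.19, with no call in any. In each series alone 0 of all genes tested were called, so the lack of a call there says nothing about Ift88. With total-count scaling the value was 0.06 without a call. Ift88 is also a member with a miR-17 seed site, and the other 3 such members, Bbs12, Kif3b and Ofd1, were not called, at -0.03, -0.06 and -0.08.

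Tctn2 had 15.2, 17.1 and 18.7 CPM with RGLS4326 against 15.9, 18.9 and 21.1 with PBS, and 16.8, 18.1, 15.3, 16.4 and 16.4 in wild type. It fell by 0.16 on the log2 scale (SE 0.05, adjusted p = 0.0284), with an adjusted p of 0.0370 without mouse 9, and the call ended without Pcy PBS mouse 3, 5 or 10 or RGLS4326 mouse 13, with adjusted p of 0.0566, 0.0591, 0.0631 and 0.0501. In index series 1, 2 and 3 alone Tctn2 was at -0.03, -0.20 and -0.22 and Bbs4 at -0.20, -0.01 and -0.15, with no call in any. In these series alone 0 of 15222, 15188 and 14763 genes were called, so the lack of a call says nothing about either gene. Bbs4, the BBSome subunit tied to centriolar satellites, had 14.9, 16.1 and 17.5 CPM against 15.3, 17.02 and 20.4 CPM, and 16.1, 18, 17.8, 15.7 and 16.9 in wild type. Its value of -0.12 (SE 0.04, adjusted p = 0.0438) lost the call in 19 of the 31 models that left out 1 mouse each, where the adjusted p reached 0.0761 at most. Exons of Bbs4 share 194 bases with Adpgk on the other strand.

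Nphp4 lay at the threshold. It had 2.45, 3.85 and 4.71 CPM with RGLS4326 against 3.49, 4.75 and 6.32 with PBS, the lowest value being that of mouse 9, with a log2 fold change of -0.27 and an adjusted p of 0.0503 (0.0360 by DESeq2, 0.0793 without mouse 9). Of the other members with the smallest p in their role, Ift81, an IFT-B subunit that binds tubulin, was at -0.09 (24.1 CPM as the median against 25.7, adjusted p = 0.0588). Ift43 was at -0.17 (12.4 against 13.2 CPM, adjusted p = 0.115), Arl6 at 0.11 (21.4 against 19.6 CPM, adjusted p = 0.116), and Bbs1, Dync2li1 and Ofd1 at -0.07, -0.08 and -0.08 (adjusted p = 0.162, 0.153 and 0.253). The groups overlapped in each, and these values did not pass the test, though Ift81 did in 4 and Nphp4 in 8 of the 31 models that left out 1 mouse each (lowest adjusted p 0.0308 and 0.0229).

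Of the 5 members past 0.5 in the cystic kidney, Ift88 and Nphp4 are given above. The 95% intervals of the drug comparison for the other 3 were -0.25 to 0.05 for Ift27, -0.12 to 0.09 for Bbs2 and -0.01 to 0.40 for Cep290. Bbs2 had 21.1, 31.8 and 34.1 CPM with RGLS4326, and the lowest, far below the rest, was mouse 9.

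**Figure D4:**
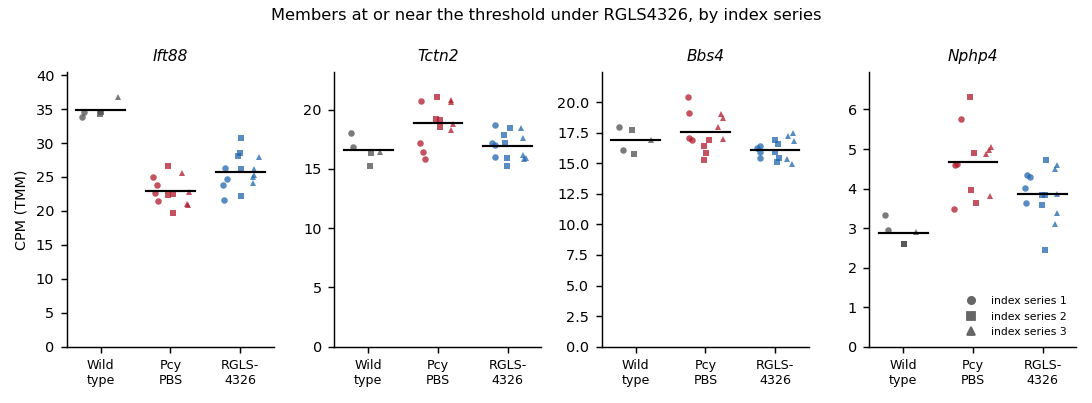
Level in CPM (vertical axis from 0) of Ift88, Tctn2, Bbs4 and Nphp4 in each mouse, with the marker shape giving the index series and the bar the group mean. RGLS4326 and Pcy PBS overlap in all 4 genes, and every RGLS4326 value of Ift88 lies below every wild-type value.

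Of the other cilium genes 6 of 67 were higher with RGLS4326 and 2 lower, against 9.15% and 6.66% of all genes tested. Under total-count scaling most of their calls were lower instead, as were those of all genes (551 higher and 4132 lower of 15185). Lztfl1 rose by 0.28 (adjusted p = 0.0131) and Invs by 0.27 (adjusted p = 0.0390). Both are among the 10 other cilium genes (14.7% of 68) with a miR-17 seed site in the 3′ UTR, and the remaining 8, Pkd1 and Pkd2 included, were not called. Without mouse 9 the test called only Lztfl1 higher (0.26, adjusted p = 0.0211), and Invs, whose highest value was that of mouse 9, was at 0.22 (adjusted p = 0.0682). Pkd1 and Pkd2 were at 0.01 and 0.16 (adjusted p = 0.944 and 0.116). Of the tissue markers, 5 of 12 proximal tubule markers were higher and 6 of 7 principal cell markers lower with RGLS4326. These marker calls include mouse 9, whose summed principal cell markers were the lowest of its group (864 CPM, group median 1759 CPM). Marker calls without it are not given here. Of 17 motile cilia markers 4 were lower, each past 0.5, with a median log2 fold change of -0.36 over the 17, and Foxj1 was not called at -0.71 (adjusted p = 0.0973). Also, 2 of 10 injured tubule markers were lower, with a median log2 fold change of -0.41 over the 10. Lcn2 and Havcr1, which belong to that list, were not called at -0.81 and 0.13 (adjusted p = 0.148 and 0.705).

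The third comparison, of RGLS4326 with wild type, shares each of its groups with one of the others. It called 10 of 43 members higher and 11 lower, 48.8%, against 32.5% and 32.4% of all genes tested, 64.9% in all. With total-count scaling, which moved the median of all genes by 0.26, the members were called 30 higher and 1 lower. Over all 15185 genes tested, that scaling called 8448 higher and 2079 lower. With TMM, Bbs2 and Ift27 rose by 0.67 and 0.63 on the log2 scale, and Bbs10, Ift88 and Cep290 were lower by -0.46, -0.43 and -0.42. Of these, Bbs10 and Cep290 lost the call under total-count scaling. For Ift88 the 3 comparisons gave -0.61 for Pcy PBS against wild type, 0.17 for RGLS4326 against Pcy PBS and -0.43 for RGLS4326 against wild type, each called, and for Tctn2 they gave 0.19, -0.16 and 0.03, the last not called (adjusted p = 0.657). For Nphp4 they gave 0.70, -0.27 and 0.43, and for Bbs2 0.69, -0.02 and 0.67. Groups stayed apart in 5 members, 1 higher (Ift27) and 4 lower (Ift52, Ift88, Bbs7, Arl6), 11.6% against 14.8% of all genes tested (5.04% higher and 9.75% lower). Of the called members 2 passed 0.5 on the log2 scale, both higher, against 31.5% of all genes (20.3% higher and 11.3% lower).

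**Figure D5:**
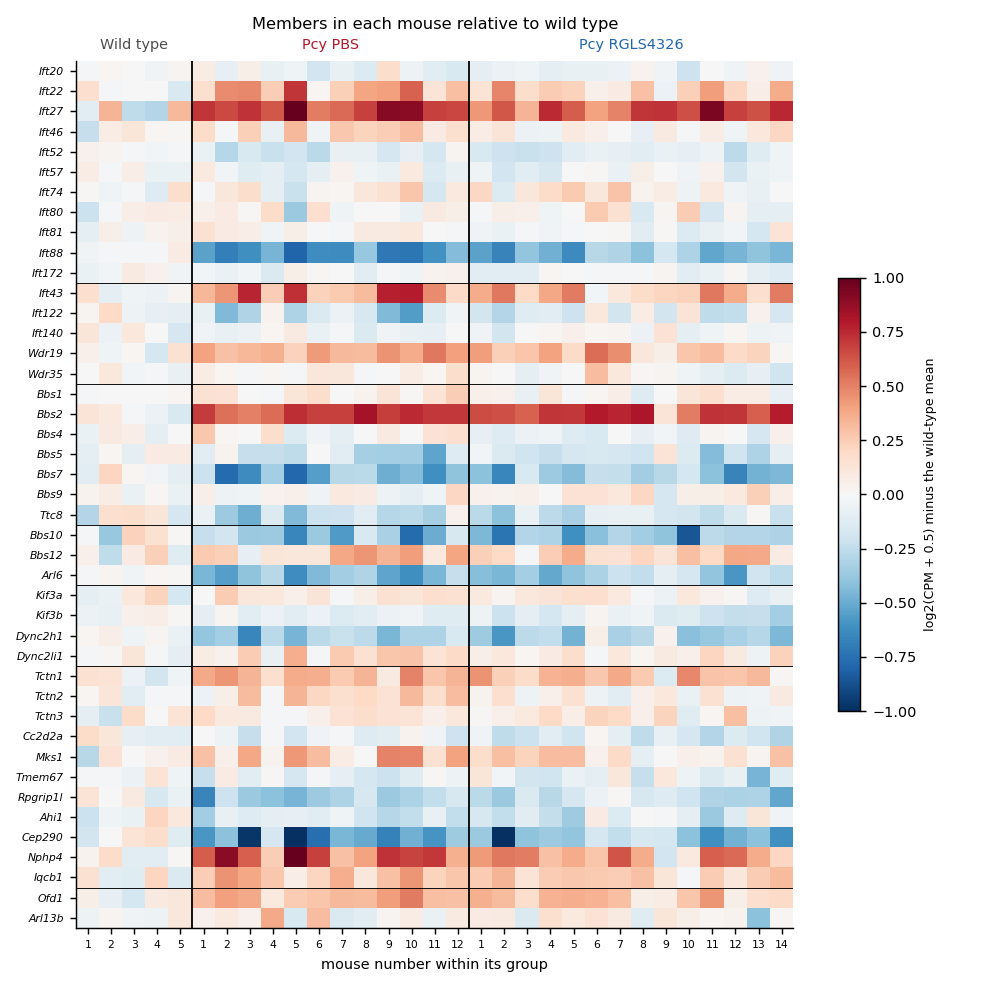
Log2(CPM + 0.5) of each member minus its wild-type mean (colour, red above and blue below, saturated at -1 and 1) in every mouse, numbered within its group. Rows follow the roles from IFT-B at the top to Arl13b at the bottom. Bbs2, Ift27 and Nphp4 form red rows and Ift88, Arl6 and Cep290 blue rows across both cystic groups, except that Nphp4 is below the wild-type mean in RGLS4326 mouse 9, which is also pale in Bbs2, Ift88, Arl6 and Cep290, and the colours are on the TMM scale, where total-count scaling would move cystic mice toward red.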

How the data were processed

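RNA from frozen whole kidney (Qiagen RNeasy) was made into TruSeq Stranded mRNA libraries and sequenced in paired 75-base reads. Per the labels and the methods of the study, the authors checked reads with FastQC 0.11.2, trimmed them with Trim Galore, aligned them to GRCm38 with STAR, handled alignments with SAMtools 1.1 and Picard 1.119 and deposited counts of reads per gene from HTSeq 0.6.1, 1 file a mouse. The gene annotation and the strand setting are not given in the sources used here. The 5 summary lines of each file were left out of library sizes. Unassigned and multiply aligned reads can therefore lower a gene's count.

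Counts of 23509 genes were tested with edgeR 4.0.16 (R 4.3.3): genes with low counts were removed by filterByExpr, leaving 15185, libraries were scaled by TMM, and 1 quasi-likelihood model held all 31 mice with the group as its factor. P-values were adjusted by Benjamini and Hochberg over all genes tested, all tests were two-sided, and a gene was called at an adjusted p under 0.05. The SE is the log2 fold change divided by the root of the F statistic. CPM relate a gene's counts to the TMM-scaled library, and 0.5 was added where CPM are shown as logs. P-values set the difference between groups against the spread between mice, estimated over all 3 groups together. The script was tested on simulated data.

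The members and gene lists were chosen with earlier results of these data known. For each role the text gives the wild-type mice 1 by 1, and the lowest, median and highest mouse of the other groups, for the 2 members with the smallest p and the 1 with the largest in Pcy PBS against wild type, and the 2 (1 in roles of up to 5 genes) with the smallest p under RGLS4326. Of the other lists the 2 called genes with the smallest p could be named, as could Pkd1, Pkd2, Lcn2 and Havcr1, and cell type marker lists are given mostly by counts. One gene that the rule allows is not reported here. Other members are named by level or fold change only. Alternatives were DESeq2 1.42.0, RLE or total-count scaling, no filter, 2 groups only, index series as covariate or alone, the replicate number as a block, a size threshold of 0.5, and leaving out each mouse. Leaving out RGLS4326 mouse 9 and wild-type mouse 4 together was chosen after seeing the data.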

Additional observations from a re-analysis of the deposited data

Results flagged for a closer look

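Dixon's test was run on the 5 wild-type mice for each of the 43 members, and 2 had 1 mouse apart from the other 4, where chance gives about 1 in 20 groups. Ift88 was at 36.8 CPM in wild-type mouse 5 against 33.9 to 34.6 CPM in the others, and Tmem67 was at 10.1 CPM in wild-type mouse 4 against 8.76 to 9.02 CPM. Without wild-type mouse 5 the log2 fold change of Ift88 in Pcy PBS was -0.59.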

How the results depend on the processing

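All counts are of members called higher and lower at an adjusted p under 0.05, then of other cilium genes. In Pcy PBS against wild type the members numbered 14 and 12 and the others 27 and 24. These became 34 and 1, and 49 and 8, with total-count scaling (median of members 0.41), 6 and 6, and 14 and 14, in index series 1 alone (median 0.0106), 8 and 6, and 11 and 12, in index series 2 alone, and 3 and 2, and 11 and 8, with a size over 0.5. Over all genes total-count scaling called 9513 higher and 2373 lower of 15185. Index series 1 alone called 4004 and 3901 of 15222, and series 2 alone 3558 and 3360 of 15188. Total-count scaling turned Dync2h1 to 0.0221 and Tmem67 to 0.28. Leaving out each mouse gave 13 to 15 and 10 to 12 members. In RGLS4326 against Pcy PBS (1 and 2, others 6 and 2) the counts were 0 and 20, and 1 and 23, with total-count scaling (median -0.14), and 0 throughout in each index series alone (medians 0.0416 in series 2 and -0.0656 in series 3) and with a size over 0.5. Over all genes total-count scaling called 551 higher and 4132 lower of 15185, and each index series alone called 0. Without the filter 1 member and 0 others were lower. With only both groups in the model 1 member was lower, and the others were 1 and 0. Without RGLS4326 mouse 9 and wild-type mouse 4 they were 0 and 1, and 1 and 0. DESeq2 called 4 members and 5 others lower. Over all genes the calls higher and lower were 1006 and 714 without the filter and 771 and 709 with only both groups. They were 499 and 485 without those mice and 1876 and 1327 by DESeq2. Leaving out each mouse gave 0 to 1 and 0 to 4 members, and 1 to 9 and 0 to 7 others, with medians from -0.04 to -0.01. Over all genes the calls higher then ran from 368 (without Pcy PBS mouse 10) to 2205 (without Pcy PBS mouse 4). The calls lower ran from 250 (without Pcy PBS mouse 10) to 1802 (without RGLS4326 mouse 2). In RGLS4326 against wild type (10 and 11, others 21 and 19) the counts were 30 and 1, and 42 and 7, with total-count scaling (median 0.24), which turned Ift81 to 0.22, Wdr35 to 0.24 and Bbs4 to 0.19. They were 4 and 5 members, and 12 others lower, in series 1 alone, 2 and 0, and 0 and 0, in series 2 alone, and 2 and 0, and 8 and 4, with a size over 0.5. Over all genes series 1 alone called 3619 higher and 3576 lower of 15222, and series 2 alone only 296 and 96 of 15188. Leaving out each mouse gave 8 to 10 and 10 to 12 members, with medians from -0.0208 to 0.0197. Index series 3 holds 1 wild-type mouse and was not compared with wild type alone. Series 2 holds RGLS4326 mouse 9. The cause of these differences was not tested.

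The replicate number names different animals, and same-numbered mice did not deviate together (correlations of -0.45 to 0.48 over 12 pairs of RGLS4326 and Pcy PBS, with 1 mouse most like its own number). With the replicate block, 8 members were higher and 7 lower in Pcy PBS, with 17 others higher, and under RGLS4326 the counts were 0 and 0 for members and 0 and 0 for the others (Ift88 0.17, adjusted p = 0.123 by edgeR). Over all genes the block called 4647 higher and 4606 lower of 14468 in Pcy PBS, and only 5 and 6 of 14657 under RGLS4326. The share of member promoters with an X-box went from 15.8% to 47.4% with 1 mismatch.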
